A study of Mus musculus with 12 samples.

Results

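The MHC class I presentation machinery was examined as 10 genes in RNA-seq libraries of reporter-positive B cells sorted from the spleens of 12 mice. The genes were the invariant light chain B2m, the heavy chains H2-K1, H2-D1 and H2-M3, the peptide transporter subunits Tap1 and Tap2, the loading factor Tapbp, the transactivator Nlrc5, and the immunoproteasome subunits Psmb8 and Psmb9. They were chosen by name, as the rows of the count tables whose identifiers carry these symbols, and make up 10 of the 50686 genes counted. All 10 had enough counts to be among the 17754 genes tested. YC mice (n = 3) were normal controls, YFPstopF/+ Cg1Cre/+, and their cells were sorted as B220+YFP+. BIC mice (n = 3) carried Blimp1F/F, IKK2castopF/stopF and Cg1Cre/+, and pBIC mice (n = 6) carried p53F/F in addition; both were sorted as B220+GFP+. All 3 groups therefore share a Cre recombinase driven from the locus of the IgG1 constant gene, which acts in B cells that transcribe that gene, as germinal centre B cells do. IKK2ca is an always-active form of IKK2, a kinase that turns on canonical NF-kB, placed behind a floxed stop cassette, and Blimp1 is the factor that drives B cells to become plasma cells. The labels describe BIC and pBIC as ABC-DLBCL, the activated B-cell form of diffuse large B-cell lymphoma. Age, sex, strain and H2 haplotype are not given in the labels.

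Class I molecules show peptides from inside a cell to CD8 T cells. Proteasomes cut cytosolic proteins, and the immunoproteasome, in which Psmb8 and Psmb9 replace the constitutive subunits Psmb5 and Psmb6, favours fragments that fit class I. The Tap1-Tap2 pump moves peptides into the endoplasmic reticulum, where tapasin, the product of Tapbp, holds empty class I molecules at the pump until a peptide is bound. Class I genes are classic targets of interferon and NF-kB, and of Nlrc5, which does not bind DNA itself and works through proteins bound to a conserved promoter module with X and Y boxes. Lymphomas often lose B2m or class I from the surface.

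Total counts ran from 33127283 to 47067627 per library, and the 10 genes together took 0.462% to 1.36% of them. Trp53 stood at 137 to 147 CPM in YC, 72.1 to 209 CPM in BIC and 16.2 to 32.0 CPM in pBIC, where CPM are counts per 1e6 counts of a library, with TMM factors applied. All 3 BIC libraries and pBIC 2, 4 and 5 carried Xist at 1491 to 2633 CPM, and the other 6 libraries at no more than 5.13 CPM, so that sex-linked transcripts and genotype cannot be told apart between BIC and YC. B cell markers summed to 8890 to 10488 CPM in YC, 9133 to 9715 CPM in BIC and 2542 to 7514 CPM in pBIC. In sorted bulk cells, fewer cells of a type and less RNA per cell cannot be told apart.

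Promoter sequences of 8 of the 10 genes were matched by symbol in RefSeq's GRCm38.p6 table, each from 250 bases before to 50 bases after the transcript start. A pair of short motifs known as the X2 half-site (TGACG) and the Y box (CCAAT, which reads ATTGG on the other strand) stood with exactly 20 bases between them in B2m, H2-K1, H2-D1 and H2-M3. That spacing was noticed in these sequences and then counted in the whole table: 19 of 32544 distinct promoters, 0.0584%, held TGACG and ATTGG 20 bases apart on the strand of transcription. The stretches are shown because these 4 genes carry the same arrangement while H2-M3 alone of the 4 fell in pBIC. Capitals mark matches to an NF-kB pattern (GGGNNNNNCC on either strand, overlapping matches joined), the core of an interferon-response element (AANNGAAA on either strand), and the TGACG and ATTGG pair. Each stretch is read 5′ to 3′ on the strand of the gene.
B2m, chr2:122147545-122147643, plus strand: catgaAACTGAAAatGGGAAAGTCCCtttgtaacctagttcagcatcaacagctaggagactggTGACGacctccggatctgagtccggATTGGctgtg
H2-K1, chr17:34000354-34000479, minus strand: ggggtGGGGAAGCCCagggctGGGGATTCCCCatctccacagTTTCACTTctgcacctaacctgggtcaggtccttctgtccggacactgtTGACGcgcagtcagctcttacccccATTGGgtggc
H2-D1, chr17:35262902-35263027, plus strand: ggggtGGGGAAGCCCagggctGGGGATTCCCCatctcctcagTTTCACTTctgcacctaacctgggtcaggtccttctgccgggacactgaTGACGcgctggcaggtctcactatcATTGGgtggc
H2-M3, chr17:37270087-37270222, plus strand: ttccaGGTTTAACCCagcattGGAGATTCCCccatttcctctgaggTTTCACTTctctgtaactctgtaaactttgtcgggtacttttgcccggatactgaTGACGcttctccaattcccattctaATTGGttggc

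H2-K1 and H2-D1 share the palindromic NF-kB element GGGGATTCCCC, which was read from H2-K1. On the strand of transcription 6 of the 32544 promoters held it (0.0184%), these 2 among them, and the other strand was not searched for it. At the same place, upstream of its interferon-response match, H2-M3 has GGAGATTCCC. In B2m the order is the other way round. Its GGGAAAGTCC, within the marked run, lies downstream of its interferon-response match, with first bases at -127 and -137 from the start. Single motifs were common over the table. The NF-kB pattern was in 6 of the 8 promoters and in 51% of all, AANNGAAA in 4 of 8 and 23.9%, TGACG in 6 of 8 and 20.9%, and CCAAT in 7 of 8 and 37.4%, each counted on both strands. Tap1 and Psmb9 are divergent neighbours whose starts lie 226 bases apart, and their windows have 275 bases in common. These matches are descriptions of letters and were not tested for binding.

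**Figure D1:**
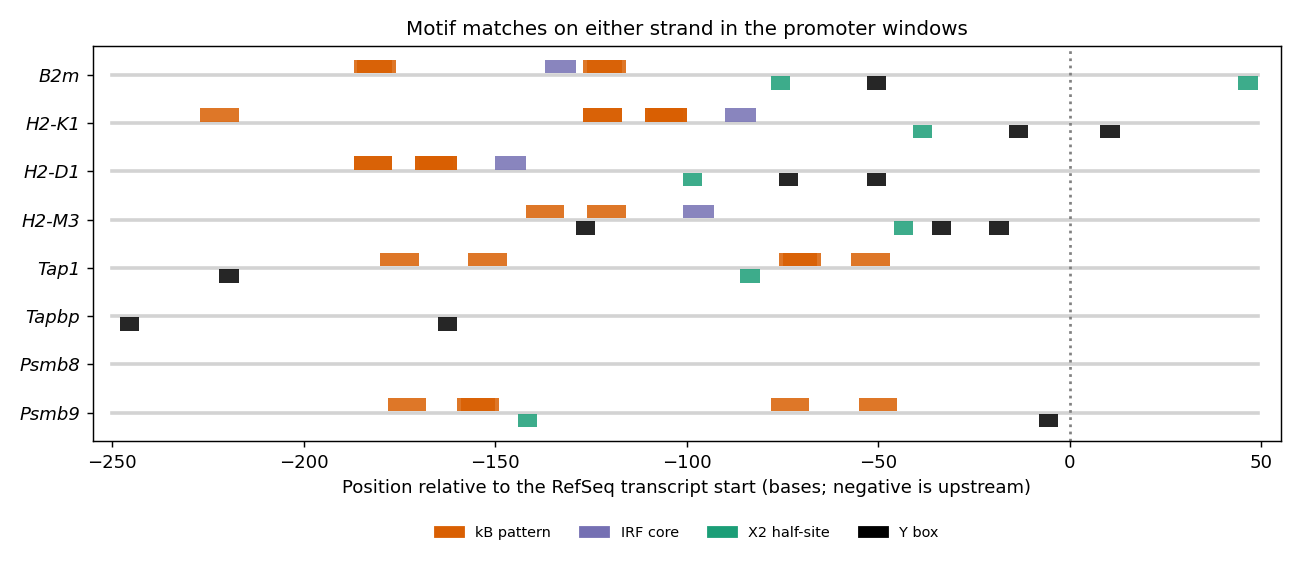
Positions of motif matches along the 8 promoter windows, in bases from the RefSeq transcript start, with the NF-kB (kB) pattern and IRF core drawn above each line and the X2 half-site and Y box below it. B2m, H2-K1, H2-D1 and H2-M3 show an interferon-response match upstream of an X2 half-site and a Y box, and no motif searched matched in the Psmb8 window.

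The light chain B2m (ENSMUSG00000060802.8, chromosome 2, 122147686 to 122153083, plus strand, GRCm38) pairs with every classical class I heavy chain. It measured 1307, 1007 and 1022 CPM in YC 1 to 3, 2534, 3290 and 1930 CPM in BIC 1 to 3, and 2092, 1716, 1270, 946, 1557 and 2386 CPM in pBIC 1 to 6. Every BIC library was above every YC library, while pBIC 3 and pBIC 4 lay within or below the YC range. B2m rose in BIC against YC by 1.22 ± 0.32 on the log2 scale (SE, edgeR quasi-likelihood test with Benjamini-Hochberg adjustment, adjusted p = 0.0358), a 2.32-fold difference. In pBIC it was 0.58 ± 0.28 above YC (edgeR adjusted p = 0.157) and 0.64 ± 0.27 below BIC (log2 fold change -0.64, edgeR adjusted p = 0.112), neither past the threshold of 0.05. Per kilobase of exon B2m was the most abundant of the 10 genes in each group, with 1293 ± 196 CPM per kb in YC (SD, n = 3), 3005 ± 792 in BIC (n = 3) and 1931 ± 613 in pBIC (n = 6).

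H2-K1 (ENSMUSG00000061232.15, chromosome 17, 33996017 to 34000333, minus strand) and H2-D1 (ENSMUSG00000073411.11, chromosome 17, 35262730 to 35267499, plus strand) are the classical heavy chains that present to CD8 T cells. H2-K1 measured 2162, 1536 and 1526 CPM in YC, 4066, 4387 and 2741 CPM in BIC, and 3118, 1693, 1290, 1558, 1918 and 3219 CPM in pBIC. H2-D1 measured 1916, 1398 and 1372 CPM in YC, 2582, 3108 and 2301 CPM in BIC, and 2189, 1199, 1062, 1215, 1449 and 2623 CPM in pBIC. For both genes the BIC libraries lay above all YC libraries, and the pBIC libraries spread from below YC into the BIC range, with pBIC 1 and pBIC 6 high. H2-K1 was 1.10 ± 0.35 higher in BIC than in YC on the log2 scale (edgeR adjusted p = 0.0753), 0.29 ± 0.31 higher in pBIC than in YC (edgeR adjusted p = 0.522), and differed by -0.81 ± 0.30 between pBIC and BIC (edgeR adjusted p = 0.0737). The H2-D1 values were 0.77 ± 0.33 (edgeR adjusted p = 0.168), 0.06 ± 0.29 (0.910) and -0.71 ± 0.28 (0.0920), so that neither heavy chain passed the test in any comparison. Windows of 100 bases, the read length, that also occur in transcripts of other genes made up 0.957% of H2-K1 and 3.59% of H2-D1, and reads from such windows are lost or misplaced in counts without multi-mapping reads.

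H2-M3 (ENSMUSG00000016206.6, chromosome 17, 37270220 to 37274484, plus strand) encodes a nonclassical heavy chain that presents N-formylated peptides, as bacteria and mitochondria make them. It measured 117, 104 and 101 CPM in YC, 131, 151 and 93.1 CPM in BIC, and 53.5, 53.4, 20.6, 37.6, 38.8 and 48.2 CPM in pBIC. All 6 pBIC libraries were below every YC and BIC library, and YC and BIC overlapped. H2-M3 fell in pBIC against YC, to 0.393 of the YC level (log2 fold change -1.35 ± 0.26, edgeR adjusted p = 0.00357). Against BIC it fell to 0.336 of the level (-1.57 ± 0.26, edgeR adjusted p = 0.00242), while BIC and YC differed by 0.22 ± 0.31 (edgeR adjusted p = 0.690). The YC libraries enter one of these comparisons and the pBIC libraries both, so they are not independent of each other. No 100-base window of H2-M3 occurred in another gene's transcripts, and no exon of it overlapped another gene. It was the lowest of the 10 genes, relative to its YC mean, in each of the 9 BIC and pBIC libraries.

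The transporter subunits lie close together on chromosome 17 with Psmb8 between them, Tap1 (ENSMUSG00000037321.17) at 34187553 to 34197225 and Tap2 (ENSMUSG00000024339.12) at 34203527 to 34216321, both on the plus strand. Tap1 measured 352, 355 and 343 CPM in YC, 705, 773 and 460 CPM in BIC, and 433, 415, 205, 279, 633 and 523 CPM in pBIC. Tap2 measured 109, 138 and 148 CPM in YC, 227, 273 and 213 CPM in BIC, and 179, 136, 81.5, 85.7, 225 and 224 CPM in pBIC. BIC was above YC in every library for both, and pBIC 3 and pBIC 4 were below every YC library for both. Tap1 differed by 0.88 ± 0.36 between BIC and YC (edgeR adjusted p = 0.141) and Tap2 by 0.85 ± 0.37 (edgeR adjusted p = 0.171). Neither passed the test between pBIC and YC (0.24 ± 0.31 and 0.24 ± 0.32, edgeR adjusted p = 0.603 and 0.628) or between pBIC and BIC (-0.64 ± 0.30 and -0.62 ± 0.31, edgeR adjusted p = 0.150 and 0.186). The subunits work as a pair, and the Tap1 to Tap2 ratio per kilobase stayed within 1.49 to 2.25 in all 12 libraries. Of the Tap2 exon bases 18.5% are shared with Gm15821 or Gm20496 on the opposite strand, and the counts do not use strand.

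Tapbp (ENSMUSG00000024308.14, chromosome 17, 33915899 to 33929288, plus strand) measured 180, 180 and 177 CPM in YC, 411, 445 and 392 CPM in BIC, and 372, 319, 190, 227, 312 and 549 CPM in pBIC. Both lymphoma groups lay above all YC libraries. Tapbp rose in BIC against YC by 1.22 ± 0.32 on the log2 scale (edgeR adjusted p = 0.0344) and in pBIC against YC by 0.87 ± 0.28 (edgeR adjusted p = 0.0431), and it was the one gene of the 10 that rose in both. The pBIC call was narrow: under 12 of 18 alternative settings the adjusted p was above the threshold, up to 0.129, with the log2 fold change between 0.67 and 1.07. These included leaving out any YC or BIC library, pBIC 1, pBIC 2 or pBIC 5. The pBIC and BIC libraries overlapped, with a difference of -0.34 ± 0.27 (edgeR adjusted p = 0.391). Of the Tapbp exon bases 22% are shared with Gm19412 on the opposite strand or Zbtb22 on the same strand, and the counts do not use strand.

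Nlrc5 (ENSMUSG00000074151.13, chromosome 8, 94434356 to 94527272, plus strand) measured 234, 205 and 184 CPM in YC, 427, 821 and 354 CPM in BIC, and 236, 420, 217, 240, 434 and 377 CPM in pBIC. BIC 2 stood far above the other libraries, all BIC libraries were above YC, and 5 of the 6 pBIC libraries were above the highest YC library. Nlrc5 rose in BIC against YC by 1.36 ± 0.36 on the log2 scale (edgeR adjusted p = 0.0359), the highest value of the 10 genes in that comparison. Without BIC 2 the difference was 0.95 (edgeR adjusted p = 0.147), and with a term for the Xist level it was 1.01 (edgeR adjusted p = 0.237). pBIC was 0.62 ± 0.31 above YC (edgeR adjusted p = 0.171), and the pBIC to BIC difference was -0.74 ± 0.30 (edgeR adjusted p = 0.101).

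The immunoproteasome genes Psmb8 (ENSMUSG00000024338.14, chromosome 17, 34197721 to 34201454, plus strand) and Psmb9 (ENSMUSG00000096727.2, chromosome 17, 34181988 to 34187764, minus strand) flank Tap1. Psmb8 measured 116, 162 and 180 CPM in YC, 233, 326 and 262 CPM in BIC, and 233, 274, 188, 118, 353 and 230 CPM in pBIC. Psmb9 measured 156, 167 and 192 CPM in YC, 339, 513 and 262 CPM in BIC, and 252, 285, 123, 116, 435 and 236 CPM in pBIC. Both genes were higher in each BIC library than in any YC library, and pBIC 5 was the highest and pBIC 4 the lowest of the pBIC libraries for both. Psmb8 differed by 0.84 ± 0.33 between BIC and YC (edgeR adjusted p = 0.130), 0.61 ± 0.29 between pBIC and YC (0.151) and -0.23 ± 0.28 between pBIC and BIC (0.592). The Psmb9 values were 1.11 ± 0.44 (edgeR adjusted p = 0.135), 0.49 ± 0.38 (0.382) and -0.62 ± 0.37 (0.255). Tap1 and Psmb9 share 212 exon bases on opposite strands, 3.87% of the Tap1 and 5.79% of the Psmb9 exon bases, and reads there cannot be assigned to one of them. Psmb8 shares 6.8% of its exon bases with Gm20496 on the opposite strand.

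**Figure D2:**
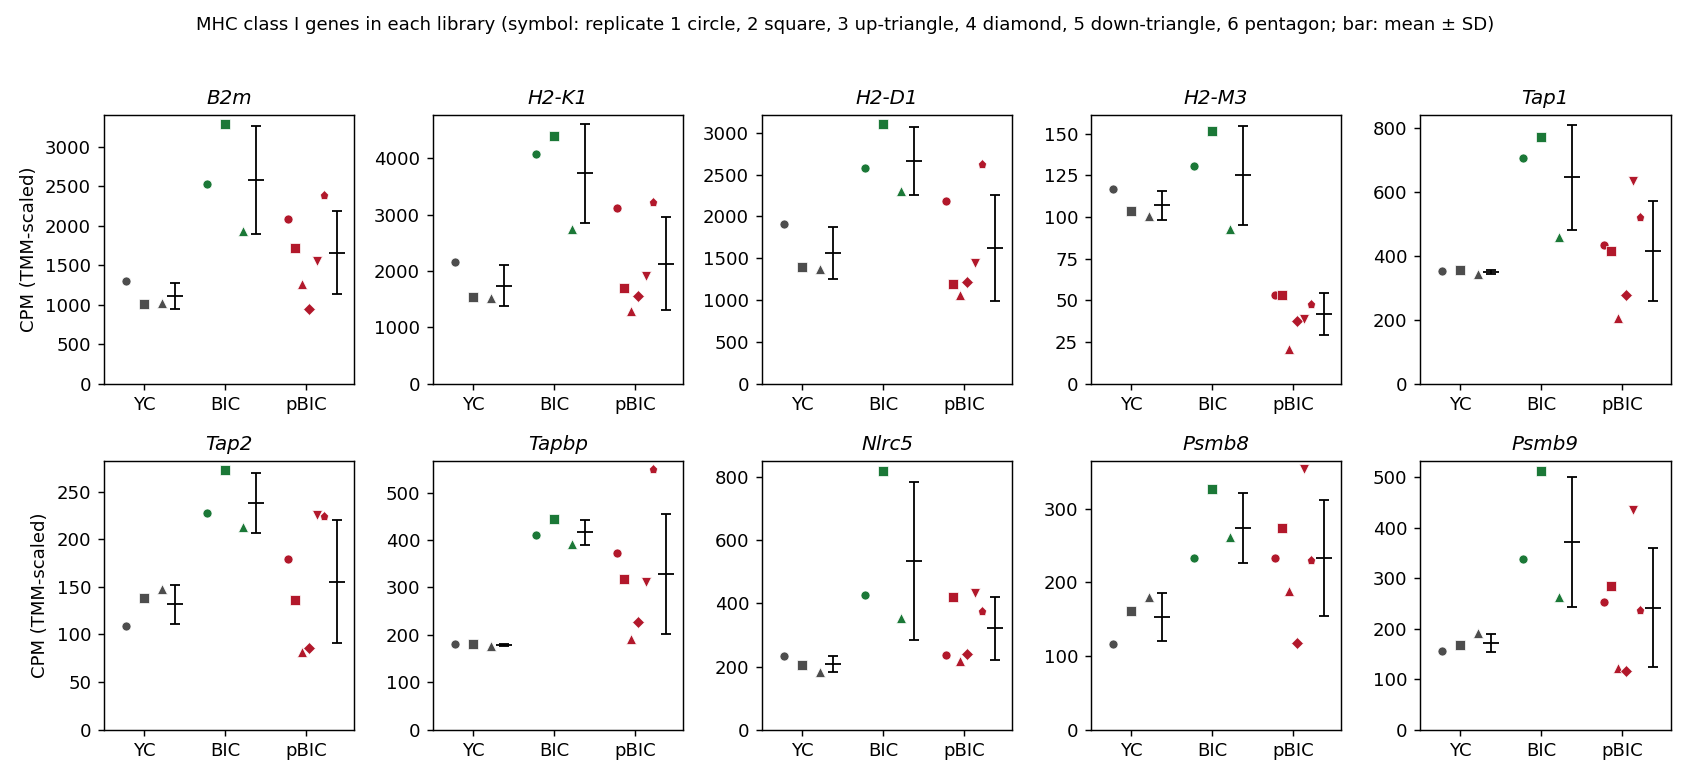
TMM-scaled CPM of each gene in each library, with the 3 YC, 3 BIC and 6 pBIC libraries as points and the mean ± SD of each group as a bar. For 9 of the 10 genes the BIC points lie above all YC points, and for H2-M3 the 6 pBIC points, at 20.6 to 53.5 CPM, lie below all others.

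Counted over the 10 genes, B2m, Tapbp and Nlrc5 rose in BIC against YC, 3 of 10, where 8.88% of all 17754 genes were called in either direction and 3.9% were called higher. All 10 log2 fold changes were above 0, with a median of 0.99 against 0.01 over all genes tested, and 9 of the 10 had BIC libraries entirely above YC, a pattern that 21.9% of all genes showed. The count rested on each library of the small groups. Without YC 1, YC 2, YC 3, BIC 1 or BIC 2, edgeR called 0 of the 10, with 5, 5, 6, 6 and 4 at an unadjusted p under 0.05, and without BIC 3 it called 2. Over these and the other libraries left out, the adjusted p reached 0.129 for B2m, 0.110 for Tapbp and 0.147 for Nlrc5, with log2 fold changes of 1.05 to 1.43, 1.21 to 1.30 and 0.95 to 1.62. DESeq2 on all libraries called 4, the same 3 genes and H2-K1, and edgeR on the BIC and YC libraries alone called 9, all but H2-M3.

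Of 9 neutrophil markers 1 was called higher in BIC against YC, the chemokine receptor Cxcr2 (4.41 ± 1.21, edgeR adjusted p = 0.0419). Here and for the marker lists that follow, the share over all genes was 8.88% called in either direction and 3.9% called higher. The sum of the 9 neutrophil markers ran from 1.84 to 259 CPM in YC and from 53.9 to 1398 CPM in BIC, with BIC 1 at 846 and BIC 2 at 1398 CPM. In some YC library 5 of the 9 (Ly6g, Cxcr2, Mpo, Elane or Camp) were at 0. The 10 macrophage and monocyte markers summed to 52.5 to 101 CPM in YC and 180 to 301 CPM in BIC, with Cd68 called higher, Adgre1 called lower and Cd14 at 0 in some YC library. The 10 T cell markers summed to 205 to 246 CPM in YC and 323 to 441 CPM in BIC, with none at 0, and Cd3g was called higher (4.55 ± 0.89, edgeR adjusted p = 0.0105). The other 9 were not called (edgeR adjusted p at least 0.225), and 9 of the 10 log2 fold changes were above 0. Cd2 and Lck made up most of the sum. Cd2 measured 143 to 151 CPM in YC and 170 to 286 CPM in BIC, and Lck 49.7 to 77.7 and 38.7 to 81.8 CPM. Cd3d, Cd3e, Trac, Trbc2, Cd4 and Cd8a were each at most 8.87 CPM in BIC. Of 6 NK cell markers Nkg7 was called higher (3.43 ± 0.86, edgeR adjusted p = 0.0301). Each of these 3 marker calls was lost without YC 3 and with the Xist term, among other settings (edgeR adjusted p up to 0.154 for Cxcr2, 0.0773 for Cd3g and 0.229 for Nkg7). The part of other cell types in the class I levels was not tested.

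In pBIC against YC, Tapbp rose and H2-M3 fell, 2 of 10, where 22% of all genes were called, 11.8% higher and 10.2% lower. The share of the 10 genes called is thus near that of all genes. Their median log2 fold change was 0.39, against 0.10 over all genes tested, and 9 of 10 values were above 0. Without pBIC 4, Psmb8 was called higher as well (edgeR adjusted p = 0.0340). Against BIC, H2-M3 fell and 9 did not pass the test, where 19.7% of all genes were called and 8.78% lower. All 10 differences were below 0, with a median of -0.64 against 0.09 over all genes, and H2-M3 was the one gene without overlap, a pattern seen for 9.9% of all genes in this direction. Without pBIC 1 edgeR called 2 (H2-K1 and H2-M3), without pBIC 6 it called 3 (H2-D1, H2-K1 and H2-M3), and with a term for the Xist level 4 (those and B2m). BIC enters this comparison and the one with YC, so the values are set side by side and not as separate evidence.

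**Figure D3:**
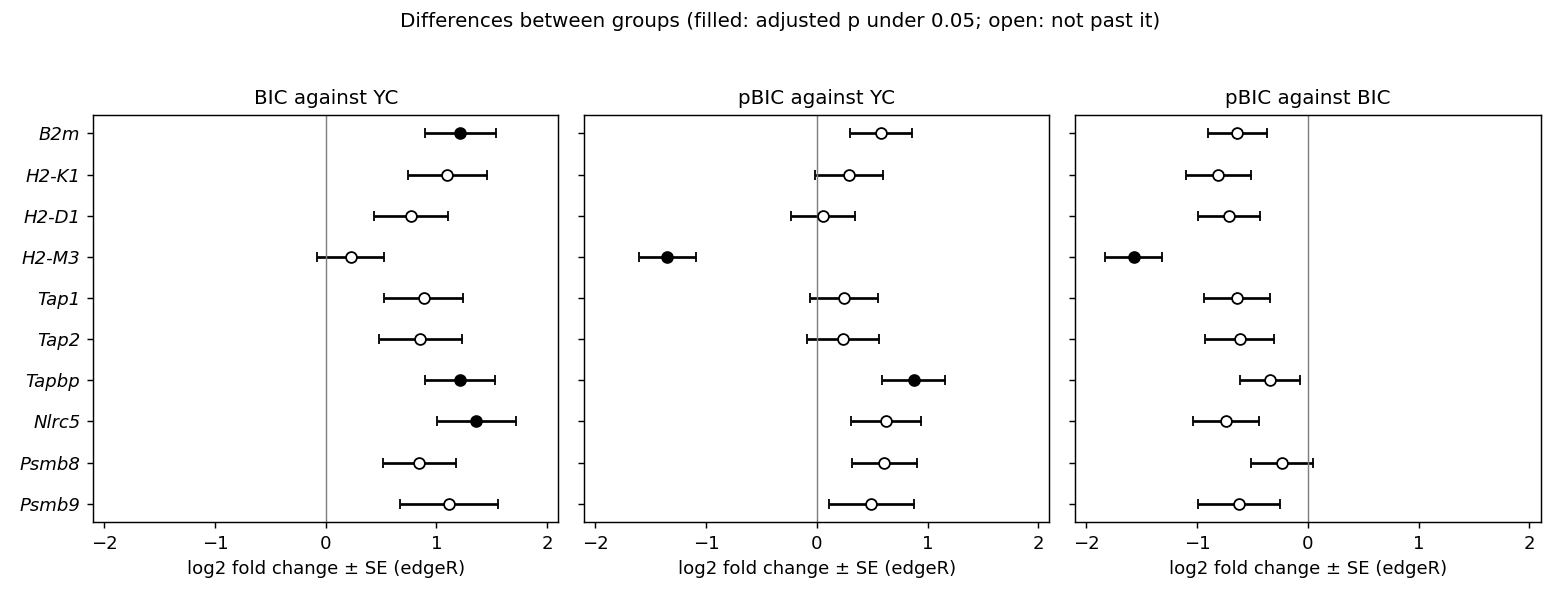
log2 fold change ± SE from edgeR for each gene in the 3 comparisons, with filled circles past an adjusted p of 0.05. B2m, Tapbp and Nlrc5 are filled in BIC against YC, H2-M3 and Tapbp in pBIC against YC, and H2-M3 in pBIC against BIC, where all 10 circles lie below 0.

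In pBIC against BIC, 4 of 8 B cell markers fell (Cd79b, Ms4a1, Cd22 and Ptprc) and 8 of 9 neutrophil markers fell, where 8.78% of all genes were called lower, with the neutrophil sum at 4.75 to 74.4 CPM in pBIC. Against YC, 4 of 8 B cell markers fell in pBIC (Cd22, Pax5, Ebf1 and Ptprc), where 10.2% of all genes were called lower. The 5 plasma cell markers summed to 1366 to 1810 CPM in YC, 254 to 539 CPM in BIC and 176 to 932 CPM in pBIC. The macrophage and monocyte sum was 28.2 to 373 CPM in pBIC and the T cell sum 81.1 to 215 CPM, with Cd2 alone at 55.2 to 167 CPM. The part of the cell makeup in these results was not tested.

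The pBIC libraries differed among themselves by more than the YC libraries did. The names of the deposited pBIC tables carry an added letter, h for 3 libraries and l for 3, which the labels do not explain and which was not used. The median SD of log2 CPM over the 10 genes was 0.19 for YC, 0.36 for BIC and 0.54 for pBIC, beside 0.27, 0.34 and 0.59 over all genes tested. From lowest to highest pBIC library the levels spanned 2.0-fold for Nlrc5 to 3.76-fold for Psmb9, and in YC from 1.02-fold for Tapbp to 1.54-fold for Psmb8. These spans cover 6 pBIC and 3 YC libraries, and a span tends to widen with more libraries even at equal spread. Relative to the YC mean, the median of the 10 genes was -0.45 in pBIC 3 and -0.34 in pBIC 4 on the log2 scale, and 0.53, 0.44, 0.79 and 0.77 in pBIC 1, 2, 5 and 6. In the BIC libraries it was 0.998, 1.23 and 0.69. The high pBIC libraries were not high in the same genes: pBIC 5 was led by Psmb9, 1.35 above the YC mean, and pBIC 6 by Tapbp, 1.61 above it.

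**Figure D4:**
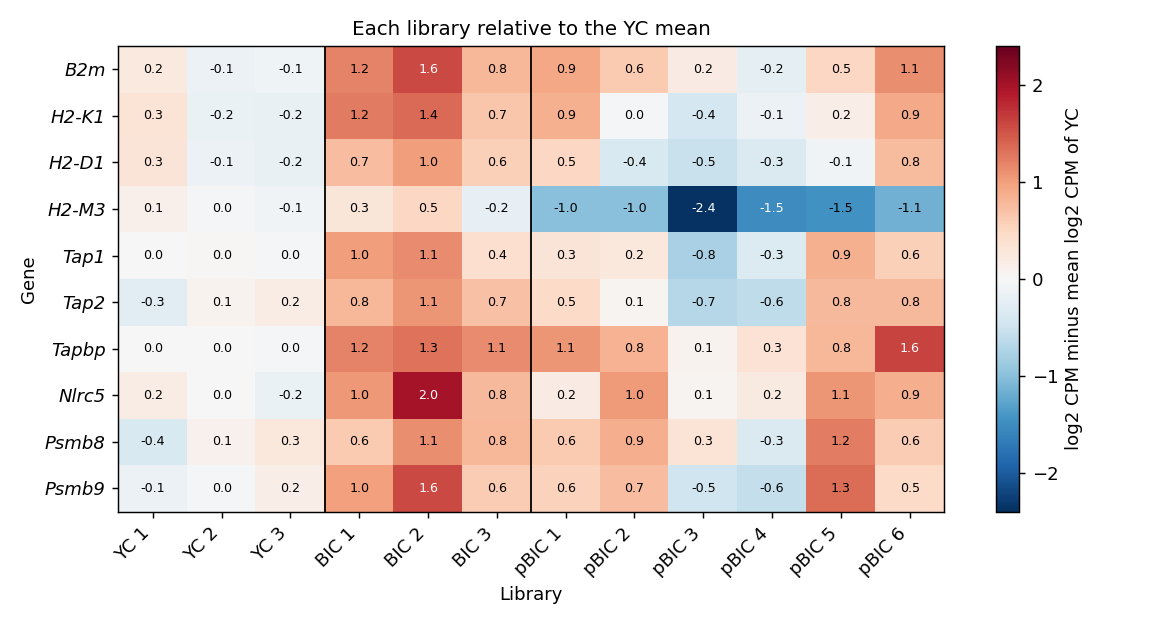
log2 CPM of each gene in each library minus the mean log2 CPM of the 3 YC libraries, red above and blue below 0. The BIC columns are red for all genes but H2-M3 in BIC 3, the pBIC 3 and pBIC 4 columns are pale or blue, and the H2-M3 row is blue in all 6 pBIC libraries.

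Ratios within a library remove the scaling between libraries, and were compared as log2 ratios of CPM per kilobase with two-sided exact permutation tests, adjusted over 18 tests (6 ratios in 3 comparisons). With 3 against 3 libraries the smallest possible p is 0.1, and with 3 against 6 it is 0.0238. Each immunoproteasome subunit was set against the constitutive subunit it replaces. Psmb8 to Psmb5 was 1.5, 1.51 and 1.56 in YC, 1.69, 2.33 and 1.99 in BIC, and 1.33, 0.809, 0.762, 0.617, 0.856 and 1.55 in pBIC. Psmb9 to Psmb6 was 1.03, 1.33 and 1.25 in YC, 2.59, 3.21 and 1.71 in BIC, and 0.848, 1.29, 0.449, 0.712, 1.54 and 1.02 in pBIC. Psmb10, the third inducible subunit, to Psmb7 was 3.31, 3.42 and 3.01 in YC, 6.21, 7.91 and 6.06 in BIC, and 2.67, 4.53, 2.45, 2.30, 4.26 and 4.12 in pBIC. For all 3 pairs BIC lay above every YC and every pBIC library, and pBIC overlapped YC.

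The log2 ratios were lower in pBIC than in BIC by the same order of size, with differences of -1.08 for Psmb8 to Psmb5, -1.42 for Psmb9 to Psmb6 and -1.03 for Psmb10 to Psmb7. Each had the smallest p the design allows (exact permutation p = 0.0238, adjusted p = 0.107), and none passed the threshold after adjustment. BIC was above YC by 0.38, 1.02 and 1.04 (exact permutation p = 0.1 each, adjusted p = 0.164). Between pBIC and YC the differences were -0.70, -0.40 and 0.01 (exact permutation p = 0.0714, 0.333 and 0.976). The denominators moved as well. Psmb5, Psmb6 and Psmb7 all rose in pBIC against YC, where 11.8% of all genes were called higher. Their log2 fold changes were 1.34 ± 0.32, 0.77 ± 0.19 and 0.80 ± 0.21 (edgeR adjusted p = 0.0108, 0.0140 and 0.0187). Psmb6 and Psmb7 also rose in pBIC against BIC (0.72 ± 0.19 and 1.06 ± 0.22, edgeR adjusted p = 0.0213 and 0.00663), where 19.7% of all genes were called. In BIC against YC, where edgeR called 8.88% of all genes, edgeR and DESeq2 called 0 of the 3, with 0 at an unadjusted p under 0.05. Against YC the calls of Psmb5 and Psmb7 were lost without YC 1 and those of Psmb6 and Psmb7 without YC 2 (edgeR adjusted p up to 0.0914), and against BIC that of Psmb6 without any BIC library, without the filter on low counts or with the Xist term (up to 0.110).

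**Figure D5:**
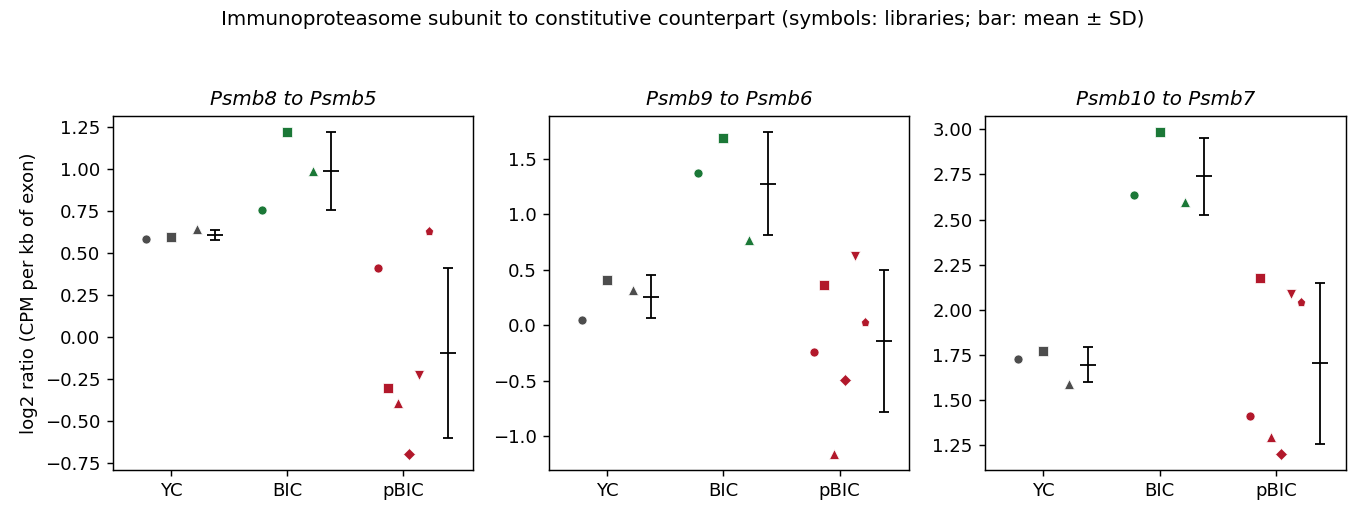
log2 ratio of each immunoproteasome subunit to its constitutive counterpart, in CPM per kilobase of exon, by library with the mean ± SD of each group. In all 3 panels the BIC points lie above all YC and pBIC points, with log2 differences between pBIC and BIC of -1.08, -1.42 and -1.03.

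The heavy chains are polymorphic and the counts rest on 1 reference genome, so how well their reads map can depend on the H2 haplotype, which the labels do not give; its part in the ratios that follow was not tested. The H2-K1 to H2-D1 ratio was 1.09 to 1.12 in YC, 1.18 to 1.56 in BIC and 1.20 to 1.41 in pBIC, without overlap between YC and the other libraries. The log2 difference from YC was 0.31 in BIC (exact permutation p = 0.1, adjusted p = 0.164) and 0.24 in pBIC (exact permutation p = 0.0238, adjusted p = 0.107). B2m relative to the sum of H2-K1 and H2-D1 per kilobase was 0.967 to 1.06 in YC, 1.15 to 1.32 in BIC and 1.03 to 1.79 in pBIC. Its log2 difference from YC was 0.24 in BIC and 0.41 in pBIC (exact permutation p = 0.1 and 0.0714, adjusted p = 0.164 for both). The Tap1 to Tap2 differences were between -0.01 and 0.02 in the 3 comparisons (exact permutation p = 1, 0.952 and 0.905).

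Other class I and class I-like chains were followed as a list of 17 genes, all tested. In BIC against YC 1 rose, H2-Q7, a Qa-2 antigen chain (log2 fold change 1.52 ± 0.38, edgeR adjusted p = 0.0312), where 3.9% of all genes were called higher, and the median of the list was 0.84 against 0.01 over all genes. H2-Q7 measured 535, 303 and 278 CPM in YC, 1199, 1403 and 595 CPM in BIC, and 350, 421, 214, 359, 417 and 544 CPM in pBIC. All BIC libraries were above all others, BIC 3 by the least, and H2-Q7 fell in pBIC against BIC (-1.47 ± 0.31, edgeR adjusted p = 0.00816). H2-T23, the chain of Qa-1, which binds leader peptides of other class I chains, measured 341, 352 and 351 CPM in YC, 580, 694 and 374 CPM in BIC, and 246, 285, 113, 175, 292 and 317 CPM in pBIC. All pBIC libraries were below all others, and H2-T23 fell against BIC (-1.21 ± 0.29, edgeR adjusted p = 0.0135) but did not pass the test against YC (-0.55 ± 0.29, edgeR adjusted p = 0.197).

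In pBIC against BIC, H2-Q10 (-1.46 ± 0.41, edgeR adjusted p = 0.0281) and H2-Q2 (-2.05 ± 0.60, edgeR adjusted p = 0.0324) completed the 4 of 17 that fell, where 8.78% of all genes were called lower, from levels of at most 2.79 and 1.85 CPM in any library. The median of the list was -0.70, against 0.09 over all genes. In pBIC against YC 2 of 17 fell, where 10.2% of all genes were called lower: H2-Q2 (-1.91 ± 0.60, edgeR adjusted p = 0.0392) and Fcgrt, the heavy chain of the neonatal Fc receptor, which pairs with B2m and salvages IgG. Fcgrt measured 26.1, 19.9 and 21.3 CPM in YC, 6.39, 2.67 and 2.37 CPM in BIC, and 0.714, 1.60, 4.67, 2.14, 1.57 and 0.284 CPM in pBIC. Its levels in both lymphoma groups were below all YC libraries, and the fall passed the test in pBIC (-3.61 ± 0.64, edgeR adjusted p = 0.00252) but not in BIC (-2.55 ± 0.80, edgeR adjusted p = 0.0680). The H2-Q and H2-T genes are near copies of each other: 12% of the 100-base windows of H2-Q7 and 3.15% of those of H2-T23 occur in other genes, so their counts are uncertain. The H2-Q7 call against YC was lost without YC 2, YC 3, BIC 1 or BIC 2 or with the Xist term (edgeR adjusted p up to 0.126), and that of H2-T23 without BIC 1 or BIC 2 (up to 0.0732). That of H2-Q10 was lost without BIC 1 or BIC 2, without the filter on low counts, with the replicate block or the Xist term, and on only the 2 groups (edgeR adjusted p up to 0.135). The H2-Q2 call against BIC was lost under the same settings and without YC 2 or pBIC 3 (up to 0.289). Its call against YC was lost without any YC library, BIC 2 or any pBIC library but pBIC 5, without the filter or with the block (up to 0.180).

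Of 13 genes that supply and load peptides, 1 rose in BIC against YC, where 3.9% of all genes were called higher: Npepps, a cytosolic aminopeptidase (0.82 ± 0.18, edgeR adjusted p = 0.0173). In pBIC against YC 5 rose and 1 fell, where 11.8% of all genes were called higher and 10.2% lower, with a list median of 0.80 against 0.10 over all genes. Psme2, a subunit of the PA28 cap that opens the proteasome, measured 91.5, 107 and 122 CPM in YC, 206, 279 and 254 CPM in BIC, and 232, 442, 215, 155, 483 and 246 CPM in pBIC. Both lymphoma groups were above all YC libraries, and Psme2 rose in pBIC (1.47 ± 0.35, edgeR adjusted p = 0.0108) but did not pass the test in BIC (1.20 ± 0.38, edgeR adjusted p = 0.0692). Erap1, which trims peptides inside the endoplasmic reticulum, rose in pBIC (0.99 ± 0.24, edgeR adjusted p = 0.0122), as did Psme1 (1.11 ± 0.31, 0.0242), Psme3 (0.80 ± 0.21, 0.0171) and Canx, or calnexin, a chaperone of new heavy chains (0.96 ± 0.23, 0.0123). Lnpep, an endosomal aminopeptidase used in cross-presentation, fell (-0.79 ± 0.18, edgeR adjusted p = 0.00967). In pBIC against BIC, where 19.7% of all genes were called and 8.78% lower, 1 rose, Psme3 (0.89 ± 0.21, edgeR adjusted p = 0.0126), and 1 fell, Npepps (-0.61 ± 0.15, edgeR adjusted p = 0.0166). Both of these calls were lost without BIC 1 or BIC 2 (edgeR adjusted p up to 0.0748 and 0.0770). The call of Npepps against YC was lost without any YC library, BIC 1 or BIC 2 or with the Xist term (up to 0.0737), Psme2 without YC 1 or YC 2 (up to 0.0574), Erap1 without YC 1 (0.0696) and Lnpep without YC 2 (0.0598). Leaving out YC 1 or YC 2 ended the Canx call in pBIC against YC (highest edgeR adjusted p = 0.0613). Other calls lost there were Psme1 without any YC library or with the Xist term (up to 0.107), and Psme3 without YC 2 or YC 3 or with that term (up to 0.0924).

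Among 21 regulators of class I transcription, 0 rose and 2 fell in BIC against YC, near the 8.88% of all genes called: Irf8, an interferon-regulatory factor of germinal centre B cells (-1.31 ± 0.32, edgeR adjusted p = 0.0265), and Ifngr1, the ligand-binding chain of the interferon-gamma receptor (-0.90 ± 0.24, edgeR adjusted p = 0.0363). In pBIC against YC 0 rose and 7 fell, where 10.2% of all genes were called lower, with a list median of -0.45 against 0.10 over all genes. Irf8 measured 704, 685 and 676 CPM in YC, 128, 393 and 314 CPM in BIC, and 165, 222, 198, 227, 188 and 167 CPM in pBIC. Jak1, a kinase of interferon receptors, measured 598, 604 and 612 CPM in YC, 433, 419 and 418 CPM in BIC, and 276, 220, 211, 312, 157 and 150 CPM in pBIC. The 3 groups did not overlap for Jak1, with pBIC the lowest, and for Irf8 both lymphoma groups were below YC.

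In pBIC against YC, Irf8 fell by 1.83 on the log2 scale (edgeR adjusted p = 0.000873), Jak1 by 1.45 (0.000983) and Ifngr1 by 1.26 (0.00147). Ciita, the class II counterpart of Nlrc5, fell by 2.34 (edgeR adjusted p = 0.00248), while Nlrc5 itself was 0.62 ± 0.31 above YC and did not pass the test. Against BIC, Jak1 (-0.94 ± 0.21, edgeR adjusted p = 0.0111) and Ciita (-1.53 ± 0.41, 0.0239) fell and Ezh2, a histone methyltransferase that can silence class I genes, rose (0.97 ± 0.27, edgeR adjusted p = 0.0272). Of all genes 19.7% were called in that comparison and 8.78% lower. Ezh2 ran from 93.2 to 154 CPM in YC, 44.7 to 99.1 CPM in BIC and 97.6 to 173 CPM in pBIC, so that pBIC overlapped YC and BIC was the low group. Its BIC to YC difference was -0.87 ± 0.30 (edgeR adjusted p = 0.0946). The calls of Irf8, Jak1, Ifngr1 and Ciita in pBIC against YC held without each library in turn. In BIC against YC, Irf8 was lost without any YC library or BIC 3 or with the Xist term (edgeR adjusted p up to 0.0802). Ifngr1 was lost without any YC or BIC library or pBIC 2, without the filter on low counts, and with the replicate block or the Xist term (up to 0.138). In pBIC against BIC, Ezh2 was lost without BIC 1 or BIC 3 or with the replicate block (up to 0.114) and Jak1 without BIC 1 (0.0501). Ciita was lost there without BIC 1 or BIC 2, with the Xist term or on only the 2 groups (up to 0.120).

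Interferon-induced genes were a list of 23. In BIC against YC 6 rose and 0 fell, with a list median of 1.03, and in pBIC against YC 7 rose and 0 fell, with a list median of 1.82, beside 3.9% and 11.8% of all genes called higher and medians of 0.01 and 0.10 over all genes. Some genes on the list were high mainly in pBIC 6 and pBIC 1 among the pBIC libraries. Ifit1 measured 213 CPM in pBIC 6 and 33.8 CPM in pBIC 1, and 0.331 to 3.98 CPM in pBIC 2 to 5. Isg15 measured 149 and 24.4 CPM there, and 1.85 to 4.67 CPM in pBIC 2 to 5. Cxcl10 was also highest there, at 474 and 78.1 CPM. Ifit1, Isg15 and Cxcl10 were not called in pBIC against YC (edgeR adjusted p = 0.0766, 0.208 and 0.112). The guanylate-binding proteins Gbp2, Gbp3 and Gbp7, which attack compartments that hold microbes, were among the genes that rose in both comparisons. Gbp2 measured 13.2, 15.8 and 16.6 CPM in YC, 197, 312 and 202 CPM in BIC, and 287, 422, 72.9, 86.3, 449 and 358 CPM in pBIC. It rose by 3.96 ± 0.66 in BIC and 4.20 ± 0.64 in pBIC (edgeR adjusted p = 0.00523 and 0.00127), Gbp3 by 2.26 ± 0.27 and 2.44 ± 0.25 (0.00147 and 0.000190), and Gbp7 by 3.06 ± 0.36 and 2.49 ± 0.33 (0.00147 and 0.000574). For these 3 genes both lymphoma groups lay above all YC libraries, and pBIC 3 and pBIC 4, the libraries with low class I genes, had the lowest Gbp2, Gbp3 and Gbp7 of the pBIC libraries. For Gbp3 the gap was small, at 186 and 191 CPM against 198 CPM in pBIC 6. Bst2, or tetherin, rose by 1.97 ± 0.39 in BIC and 1.63 ± 0.35 in pBIC (edgeR adjusted p = 0.0106 and 0.00680), and Xaf1 by 1.22 ± 0.33 and 1.82 ± 0.31 (0.0404 and 0.00210). Neither had the Gbp order among the pBIC libraries. Bst2 was lowest in pBIC 1 (20.8 CPM), and Xaf1 in pBIC 3 and pBIC 5 (24.7 and 35.7 CPM), with pBIC 4 at 41.2 CPM. In BIC the Bst2 call was lost without YC 2 or YC 3 or with the Xist term (edgeR adjusted p up to 0.123). The Xaf1 call in BIC was lost without any YC library, BIC 2 or BIC 3, or with the replicate block or the Xist term (up to 0.151). The calls of these 5 genes in pBIC, and those of the Gbp genes in BIC, held without each library in turn. Between pBIC and BIC edgeR called 0 of 23, where it called 19.7% of all genes, with 2 at an unadjusted p under 0.05, and DESeq2 called 2.

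Within the 6 pBIC libraries the log2 CPM of Nlrc5 was related to that of the other 9 genes, in 9 tests. Pearson's r was 0.80 with Psmb9 (exact permutation p = 0.0556), 0.79 with Tap1 (p = 0.0583, exact), 0.73 with Psmb8 (p = 0.0667, exact) and 0.68 with Tap2 (p = 0.136, exact), and Spearman's rho was 0.71 with each of the 4 (exact permutation p = 0.136). With Tapbp, H2-M3, B2m, H2-K1 and H2-D1 r was 0.55, 0.50, 0.44, 0.21 and 0.18 (exact permutation p = 0.286, 0.289, 0.364, 0.561 and 0.606), with rho between 0.20 and 0.37. No relation passed the threshold, and the lowest adjusted exact permutation p was 0.200 for r and 0.306 for rho. Without pBIC 2 and pBIC 5, the libraries farthest from the Nlrc5 median, r was 0.56 with Psmb9, 0.77 with Tap1, 0.38 with Psmb8 and 0.76 with Tap2. Tap1 and Psmb9 share a promoter region and some exon bases, so their values are not independent of each other.

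Across all 12 libraries, each gene's log2 CPM was set against the mean of the other 9, as a description over libraries that share their groups. Pearson's r was highest for Tap1 (0.94), Tap2 (0.93) and B2m (0.91), and lowest for Psmb8 (0.69) and H2-M3 (0.41). Among 9545 protein-coding genes that averaged 5 CPM or more and are in none of the lists, those with the pattern most like the mean of the 10 standardised genes were Cd44 (r = 0.96), Naip2 (0.95), Ctss (0.94), Mtg2 (0.94) and Cd300lf (0.94). Cd44, a receptor for hyaluronan, measured 192, 149 and 157 CPM in YC, 384, 429 and 269 CPM in BIC, and 279, 225, 130, 175, 234 and 286 CPM in pBIC. Ctss, a lysosomal protease that trims the class II invariant chain, measured 246, 250 and 277 CPM in YC, 639, 717 and 563 CPM in BIC, and 390, 340, 257, 220, 335 and 486 CPM in pBIC. For both, pBIC 3 and pBIC 4 were the lowest of the lymphoma libraries, as for all the class I genes but H2-D1 and Nlrc5.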

How the data were processed

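Each deposited file holds the raw read counts of 1 library. Per the file headers the authors made these counts with featureCounts 1.5.0 at the exons of each GENCODE M13 gene, with no paired-end, strand or multi-mapping option, so that mates were counted separately, antisense reads were not told apart, and reads that fit several places were not counted. The submitters' processing notes also name FastQC, STAR, edgeR and limma and the build GRCm38; no version is named there.

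Symbols came from GENCODE M21 names, matched for 50376 of 50686 identifiers (the others held at most 0.192% of a library's counts). Groups and replicate numbers came from the sample titles, and each replicate is a mouse of its own per the design text. edgeR 4.0.16 (R 4.3.3) was used with TMM factors, its filter by group at a minimum count of 10, a robust quasi-likelihood fit with 1 coefficient per group over all 12 libraries, and Benjamini-Hochberg adjustment over 17754 genes, with calls at an adjusted p under 0.05. The standard errors (SE) come from the fold change and its F statistic, so they restate the test. Ratios and relations were tested with exact permutations in SciPy 1.17.1 on CPM or log2 CPM with a prior count of 2. The count tests were checked on simulated data. Alternatives were RLE size factors, no filter, a replicate block, a term for Xist, only the compared groups, DESeq2 1.42.0, and leaving out each library.

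The genes and lists were chosen with earlier results of these data known. All 10 genes were named, up to 4 genes per further list and comparison by p (up to 2 in each direction where both passed), and the 5 genes of most similar pattern. Psme1, Psme3, Canx and Bst2 in pBIC against YC, Xaf1 in BIC against YC and the called cell type markers were named after their values were seen, as were the promoter spacing and the palindromic element. So were the T cell markers given as not called and the pBIC levels of Ifit1, Isg15 and Cxcl10. Same-numbered libraries of different groups had correlations of their deviations of -0.151 to 0.202, so the numbers were not taken as pairs.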

Additional observations from a re-analysis of the deposited data

Results flagged for a closer look

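H2-M3 in pBIC was the 1 result of the 16 groups of values checked in which a library stood apart from the other 5. The log2 CPM of H2-M3 in pBIC 3 was 4.37, and its gap to the nearest pBIC library took up 0.629 of the range of the group, just above the limit for 6 samples (Dixon's test at the 95% level). Chance alone flags about 1 in 20 such groups. Without pBIC 3, H2-M3 still fell against YC and BIC, as it did without each other library in turn (edgeR adjusted p at most 0.0199 and 0.0165).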

How the results depend on the processing

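H2-M3 fell in both comparisons with pBIC under all 18 alternatives, with log2 fold changes of -1.44 to -1.21 against YC and -1.78 to -1.43 against BIC. The count of class I genes called in BIC against YC, 3 as reported, was 5 with a replicate block, 9 on only the 2 groups, and 0 to 4 without single libraries. In pBIC against YC, 2 as reported, it was 1 without the filter on low counts, 1 with the replicate block, 1 on only the 2 groups, and 1 to 3 without single libraries. In pBIC against BIC, 1 as reported, it was 4 with the replicate block, 4 with a term for Xist, 2 by DESeq2, and 1 to 3 without single libraries. The causes of these shifts were not tested. The replicate block also turned the small differences of pBIC from YC to -0.12 for H2-D1, -0.0794 for Tap1 and -0.0376 for Tap2, and the numbers do not pair the mice. Leaving out single libraries turned the sign of values near 0: H2-D1 in pBIC against YC ranged from -0.13 to 0.23, the log2 ratio of Psmb10 to Psmb7 in pBIC against YC from -0.0876 to 0.107, that of H2-K1 to H2-D1 in pBIC against BIC from -0.185 to 0.0163, and that of Tap1 to Tap2 from -0.12 to 0.14 in BIC against YC, -0.0905 to 0.149 in pBIC against YC and -0.13 to 0.13 in pBIC against BIC. Over all genes 1576 were called in BIC against YC, 3914 in pBIC against YC and 3496 in pBIC against BIC. Those counts were 3031, 5320 and 4863 by DESeq2, 4602, 3211 and 2377 on only the 2 groups, and 563 to 1867, 1904 to 4376 and 1422 to 4134 without single libraries. With 3 mice a group, the ratio tests between BIC and YC could not pass the threshold at all.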
